A study of Rattus norvegicus with 14 samples.

Results

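Cyp11b1 and Cyp21a1 are genes of corticosteroid synthesis in the adrenal cortex, and Akr1b7 is a reductase gene known from that tissue in mice. The signal of these 3 genes was followed across fetal rat gonads. They were found by the gene symbols of the array annotation and are 3 of the 10411 genes that it names. Each has 1 probe set of its own (several short probes read together as a measure of 1 transcript), and 3 more probe sets carry Cyp11b1 together with its close relatives Cyp11b2, Cyp11b3 or both. The genes were selected on their intensities over these same groups, high in cultured testis, so their levels and differences are given as a description and carry no test.

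The study measured gonads of rat fetuses on 14 single-colour Affymetrix arrays in 7 groups of 2. The groups were E13 testis cultured for 3 days, freshly taken testis at E13, E14 and E16, and freshly taken ovary at E13, E14 and E16, where E13 is embryonic day 13. Each array held total RNA of an independent pool of 20 to 40 gonads, so a value is an average over all cell types of many organs, and fewer cells of a type and less RNA per cell cannot be told apart. Cultured testes floated on filters over CMRL 1066 medium with insulin, transferrin and albumin, and no hormone that drives the adrenal or the testis is listed. No group carried a genetic change, and the strain is not given in the sources used here.

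Steroid hormones are made from cholesterol, which Star brings into mitochondria and Cyp11a1, fed with electrons by Fdx1, cuts to pregnenolone. Hsd3b enzymes turn this into progesterone, from where the paths part. In the testis, Cyp17a1 leads towards androgens. In the adrenal cortex, Cyp21a1 turns progesterone into deoxycorticosterone and Cyp11b1 turns that into corticosterone, the main glucocorticoid of the rat, while Cyp11b2 leads on to aldosterone. Akr1b7 is an aldo-keto reductase that clears the aldehyde left over when the cholesterol side chain is cut, and in mice it is known from the adrenal cortex and the vas deferens. Mouse fetal testes are known to hold some cells that express adrenal-type hydroxylases beside the Leydig cells that make androgens.

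The DNA in front of the start sites of Cyp21a1 and Akr1b7 is shown because these genes were high on the same arrays. RefSeq's promoter table of assembly GRCr8 gives 250 bases before and 50 after the start site, and Cyp11b1 is not in that table. The Cyp21a1 window is chr20:4028141-4028440 and the Akr1b7 window is chr4:64043720-64044019, both on the + strand.
Cyp21a1: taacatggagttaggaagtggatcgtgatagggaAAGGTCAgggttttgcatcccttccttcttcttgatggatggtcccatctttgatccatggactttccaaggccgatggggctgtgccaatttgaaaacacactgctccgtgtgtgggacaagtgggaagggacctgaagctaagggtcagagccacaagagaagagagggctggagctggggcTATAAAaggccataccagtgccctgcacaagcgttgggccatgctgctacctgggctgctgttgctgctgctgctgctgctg
Akr1b7: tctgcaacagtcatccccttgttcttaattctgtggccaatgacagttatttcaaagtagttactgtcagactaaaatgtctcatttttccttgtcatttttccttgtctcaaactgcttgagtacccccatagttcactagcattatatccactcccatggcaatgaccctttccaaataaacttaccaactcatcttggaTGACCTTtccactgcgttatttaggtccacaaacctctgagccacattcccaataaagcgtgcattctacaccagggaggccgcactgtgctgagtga
Capitals mark matches to AAGGTCA, the core bound by Nr5a1 (the steroidogenic factor of adrenal and gonad), and to TATAAA, the TATA box. Cyp21a1 holds AAGGTCA at 216 bases before the start and TATAAA at 32 bases before it. Akr1b7 holds the reverse strand form TGACCTT at 48 bases before the start. AAGGTCA occurs on either strand in 4.61% of the 33469 windows of this length and TATAAA in 14.2%, and the letters TGACGTCA of the cAMP response element, found in 1.83% of windows, are in neither of these 2. Among the 18 windows of other steroid synthesis genes in the table, 1 held AAGGTCA, that of Sult1e1. A match describes the letters only.

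Intensities were deposited on a linear scale, with every array at a common trimmed mean of 125 and array medians of 59.5 to 69.1. Some arrays stood apart. Xist, the RNA of the inactive X chromosome of females, read 151 in cultured testis replicate 1, 36.2 in E13 testis replicate 1 and 269 in E14 testis replicate 1, against at most 4.8 in the other testis arrays. In ovary it read 12.8 in E16 replicate 2 and 152 to 672 elsewhere. The ratio of 3′ to 5′ actin signal, which grows as RNA degrades, was 2.97 in cultured replicate 2 and 3.34 in E16 ovary replicate 1, against 1.47 to 2.13 in the rest. The summed signal of 9 measured red blood cell genes was 11526 and 1176 in the cultured arrays and 7673 to 17958 in the fresh ones, so cultured replicate 2 held little blood signal. Amh, the Sertoli cell hormone, was at 738 and 737 in the cultured arrays, so both carried the signal of developing testis.

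Signal of the 3 enzymes was high in the cultured E13 testis and low in all fresh gonads. Cyp11b1 read 333 and 190 in the cultured arrays, against 4.2 to 24.8 (median 14.4) in the 12 fresh arrays. Cyp21a1 read 155 and 142 in the cultured arrays, against 5.6 to 27.6 (median 10.6) in fresh ones. Akr1b7 read 179 and 102 in the cultured arrays, against 8.8 to 54.5 (median 18.9) in fresh ones. For all 3 genes both cultured arrays lay above every fresh array, of either sex and any age. Of 15866 probe sets, 3.34% did so, a share given for scale only, since this pattern is what the genes were chosen for.

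**Figure D1:**
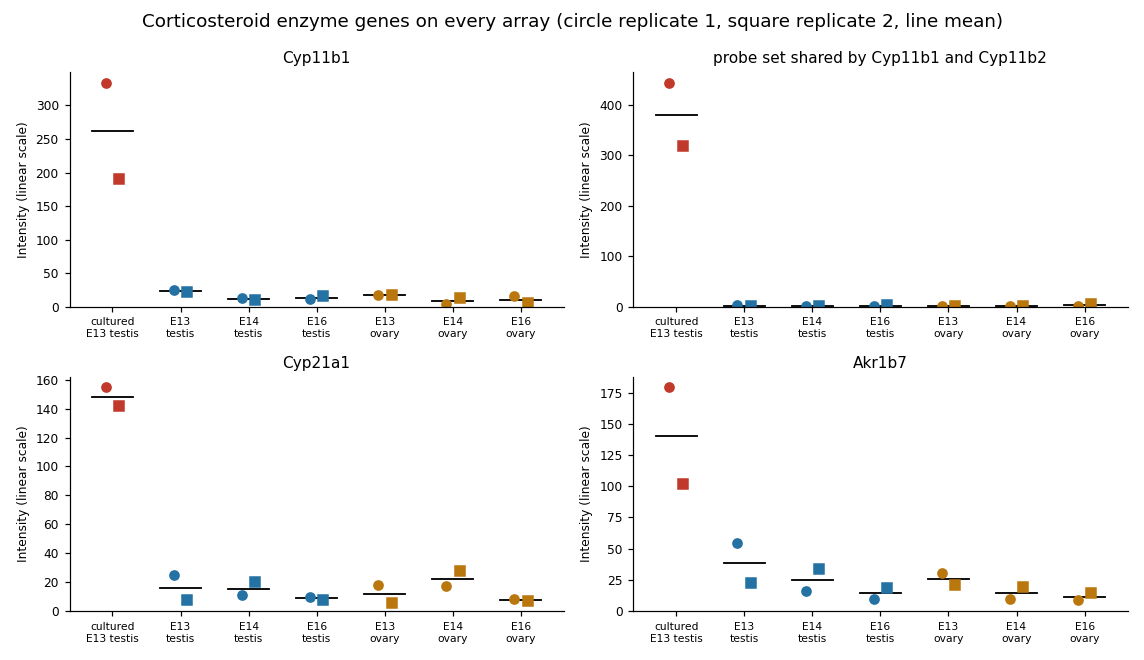
Intensity (linear axis from 0) of Cyp11b1, Cyp21a1, Akr1b7 and the probe set shared by Cyp11b1 and Cyp11b2, with cultured E13 testis at the left, fresh testis in the middle and fresh ovary at the right; circles are replicate 1, squares replicate 2 and lines group means. In each panel the 2 cultured arrays lie above the 12 fresh ones, and the distance is smallest for Akr1b7, at 102 against 54.5.

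Low signals on such arrays are hard to tell from background, and no detection calls are used here. The place of a value among all probe sets of its array gives a sense of this. Cyp11b1 ranked above 89.9% and 79.8% of probe sets in the cultured arrays and above 8.29% to 25.4% in fresh ones. Cyp21a1 ranked above 74.2% and 72.4% in the cultured arrays and above 9.68% to 28.0% in fresh ones. Akr1b7 ranked above 77.8% and 62.6% in the cultured arrays and above 13.1% to 43.7% in fresh ones. The fresh values of Cyp11b1 and Cyp21a1 thus lay in the dim part of each array, where a ratio to them says little, and differences are given as log2(intensity + 16), which damps such values.

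On that scale Cyp11b1, the corticosterone-forming enzyme, differed by 2.77 between cultured and fresh E13 testis, at 262 ± 101 against 23.3 ± 2.1 (SD, n = 2 each). Against E16 testis, the age that 3 days of culture would reach, it differed by 3.18, with E16 testis at 13.6 ± 2.4. The 2 cultured arrays differed from each other, at 333 and 190, by less than either differed from any fresh array. Cyp11b1 thus stood at a high level after culture that the fresh testis did not show at the start, at E14 or at E16.

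The other probe sets of the Cyp11b family bear on which copy was measured, since Cyp11b1, Cyp11b2 and Cyp11b3 are close relatives that can share probes. The probe set for Cyp11b1 and Cyp11b2 together read 443 and 318 in the cultured arrays and 0.6 to 6.0 in the fresh ones, the clearest separation of all. The one for Cyp11b1, Cyp11b2 and Cyp11b3 read 251 and 135 in the cultured arrays and 10.5 to 50.8 in the fresh ones. The one for Cyp11b1 and Cyp11b3 read 9.4 and 15.5 in the cultured arrays and 2.7 to 17.7 in the fresh ones, so its groups overlapped. The last of these ranked above 11.5% and 17.5% of probe sets even in the cultured arrays. No probe set names Cyp11b2 or Cyp11b3 alone, so signal of Cyp11b1 and of Cyp11b2 cannot be told apart on the shared sets.

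Cyp21a1, the enzyme one step upstream, had the closest pair of cultured values, 155 and 142. It stood at 148 ± 9.0 in cultured testis and 16.4 ± 12 in fresh E13 testis (SD, n = 2 each), a log2 difference of 2.39, and at 8.85 ± 1.8 in E16 testis, a difference of 2.73. Within the fresh groups its 2 arrays often differed more than the groups did, for example 24.8 and 7.9 in E13 testis. Of the 4 nearest measured genes on chromosome 20, none had both cultured arrays above all fresh ones. Atf6b, the next gene on one side, read 104 and 63.8 in the cultured arrays and 24.0 to 114 in the fresh ones. Stk19, the nearest measured gene on the other side, read 50.1 and 37.3 in the cultured arrays and 5.7 to 50.8 in the fresh ones. Ppt2, a thioesterase gene further along, had lower values after culture, at 6.7 and 11.9 in the cultured arrays and 12.7 to 64.8 in the fresh ones.

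Akr1b7, the aldehyde-clearing reductase, showed the smallest contrast. It stood at 140.4 ± 54.9 in cultured testis and 38.5 ± 22.6 in fresh E13 testis (SD, n = 2 each), a log2 difference of 1.54, and at 14.3 ± 5.9 in E16 testis, a difference of 2.34. The highest fresh value was 54.5 in E13 testis replicate 1, whose partner read 22.5. Its relatives in the same gene cluster on chromosome 4 are reductases of similar sequence. Akr1b8 read 176 and 248 in the cultured arrays and 50.2 to 294 in the fresh ones, and Akr1b1, the aldose reductase, read 928 and 952 in the cultured arrays and 850 to 1290 in the fresh ones. For both relatives the cultured values lay within the fresh range.

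Among fresh gonads the order of the group means was loose. For Cyp11b1 it ran from E13 testis (23.3 ± 2.1) over E13 ovary (17.2 ± 0.42), E16 testis (13.6 ± 2.4), E14 testis (11.7 ± 2.6) and E16 ovary (10.7 ± 6.5) to E14 ovary (8.25 ± 5.7; SD, n = 2 each). The 2 arrays of E13 testis (24.8 and 21.8) lay just above those of E13 ovary (16.9 and 17.5), these above those of E16 testis (11.9 and 15.3), and all later neighbours in the order overlapped. For Cyp21a1 it ran from E14 ovary (22.6 ± 7.1) to E16 ovary (7.65 ± 1.2), and for Akr1b7 from E13 testis (38.5 ± 22.6) to E16 ovary (11.6 ± 4.0), with each fresh group overlapping its neighbour in the order. The difference of E16 testis from E16 ovary was 0.17 for Cyp11b1, 0.07 for Cyp21a1 and 0.13 for Akr1b7. At that age Cyp11b1 read 11.9 and 15.3 in testis and 15.3 and 6.1 in ovary. Cyp21a1 read 10.1 and 7.6 in testis and 8.5 and 6.8 in ovary. Akr1b7 read 10.1 and 18.4 in testis and 8.8 and 14.4 in ovary, so the sexes overlapped for each of the 3 genes.

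The chip labels carry a date code, and this allows matched pairs. The replicate 1 arrays of cultured and E16 testis share 1 code, and their replicate 2 arrays share another. Cyp11b1 differed by 3.65 and 2.72 on the log2 scale within these pairs, Cyp21a1 by 2.71 and 2.74, and Akr1b7 by 2.90 and 1.77. Cultured and fresh E13 testis share no code, but the labels of their replicate 2 arrays come from the same span of codes, and there the differences were 2.45, 2.72 and 1.61 for Cyp11b1, Cyp21a1 and Akr1b7. The direction in the matched pairs was therefore that of the group means, and these arrays are part of the same means.

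Other genes of steroid synthesis were read beside the 3 enzymes. A list of 29 other genes of steroid synthesis and conversion was drawn up, of which 22 were measured. In cultured against fresh E13 testis, 5 of the 22 rose, 0 fell and 17 did not pass (limma, adjusted p under 0.05 over all probe sets). Over all 15866 probe sets 1.06% passed as higher and 0.334% as lower. The median difference was 0.32 over the list and -0.01 over all probe sets. Leaving out the 4 arrays whose Xist signal goes against their label left 1 array in each group compared, which was assumed to vary like the others. Calls were then lost both in the list and over all probe sets, so only differences are given. Cultured minus fresh E13 testis was then 5.71 for Hsd3b1, 5.43 for Cyp17a1, 2.89 for Cyp11a1, 2.86 for Star and 2.66 for Fdx1.

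Hsd3b1, which makes progesterone, the substrate of Cyp21a1, read 2032 and 2543 in the cultured arrays and 36.1 and 33.0 in fresh E13 testis (log2 5.50 ± 0.42 SE, adjusted p = 0.000211 by limma). Cyp11a1, the first enzyme of the path, read 488 and 408 against 39.5 and 41.1 (log2 3.04, adjusted p = 0.000207 by limma). Its electron donor Fdx1, which also serves Cyp11b1, read 1394 and 1456 against 216 and 217 (log2 2.63, adjusted p = 0.00045 by limma). Cyp17a1, which commits the path to androgens, read 438 and 773 against 15.5 and 2.3 (log2 4.64, adjusted p = 0.00106 by limma). Star, the cholesterol carrier, read 192 and 320 against 45.0 and 30.3 (log2 2.31, adjusted p = 0.00952 by limma), and it no longer passed without cultured replicate 2 (adjusted p = 0.109 by limma) or without E13 testis replicate 2 (adjusted p = 0.0807 by limma). In each of these 5 genes both cultured arrays lay above both E13 testis arrays.

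Of members of the list that did not pass, Tspo, a mitochondrial membrane protein, stood at 221 ± 49.6 in cultured and 153 ± 1.4 in fresh E13 testis. Por, the electron donor of Cyp21a1 and Cyp17a1, stood at 109 ± 35.6 and 99.1 ± 27.3, and Cyb5a, which aids the androgen branch of Cyp17a1, at 325 ± 30.5 and 267 ± 12.8 (SD, n = 2 each). Of the enzymes that interconvert active and inactive glucocorticoid, Hsd11b1 read 49.2 and 9.5 in cultured arrays and 10.6 and 5.8 in fresh E13 testis. Hsd11b2, which inactivates corticosterone, read 228 and 272 in cultured arrays and 107 and 110 in fresh E13 testis (log2 1.09, adjusted p = 0.0527 by limma). Its groups did not overlap, and it passed with an offset of 64, with quantile normalization, with dim probe sets left out and with the period of the date codes as a block.

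Several of these genes were also higher in fresh testis at E16, where Cyp11b1, Cyp21a1 and Akr1b7 were low. Against E13 testis, 6 of the 22 genes were higher in E16 testis, 0 were lower and 16 did not pass (limma, with 0.706% of all probe sets higher and 0.240% lower). The median difference was 0.23 over the list and -0.02 over all probe sets. Cyp11a1 read 615 and 1051 in E16 testis and 39.5 and 41.1 in E13 testis (log2 3.87, adjusted p = 3.14e-05 by limma), and Cyp17a1 read 1232 and 2566 against 15.5 and 2.3 (log2 6.22, adjusted p = 0.000317 by limma). Hsd3b1, Fdx1, Star and Hsd17b3, which forms testosterone, were the other 4, and Star and Hsd17b3 lost their calls without E13 testis replicate 2 or without E16 testis replicate 2, Hsd17b3 also without E16 testis replicate 1 and with an offset of 1. Over the same span Cyp11b1 differed by -0.41, Cyp21a1 by -0.33 and Akr1b7 by -0.80 on the log2 scale. Without the 4 arrays with discordant Xist, 1 array was left in E13 testis, and calls were lost in the list and over all probe sets.

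Against E16 ovary, E16 testis had 7 of the 22 genes higher, 0 lower and 15 that did not pass (limma, with 1.01% of all probe sets higher and 0.725% lower). The median difference was 0.33 over the list and 0.05 over all probe sets. These 7 were the 6 just named and Hsd11b2, at 219 ± 33.4 in testis and 78.6 ± 6.9 in ovary (SD, n = 2 each; log2 1.31, adjusted p = 0.0198 by limma), a call lost without any 1 of the 4 arrays compared. Hsd17b3 lost its call without either E16 testis array or without E16 ovary replicate 1. Without the 4 arrays with discordant Xist, 1 array was left in E16 ovary, and calls were again lost in the list and over all probe sets. Within the replicate 2 pair, whose date code is the same, Cyp17a1 differed by 7.07, Hsd3b1 by 6.90 and Cyp11a1 by 4.30.

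**Figure D2:**
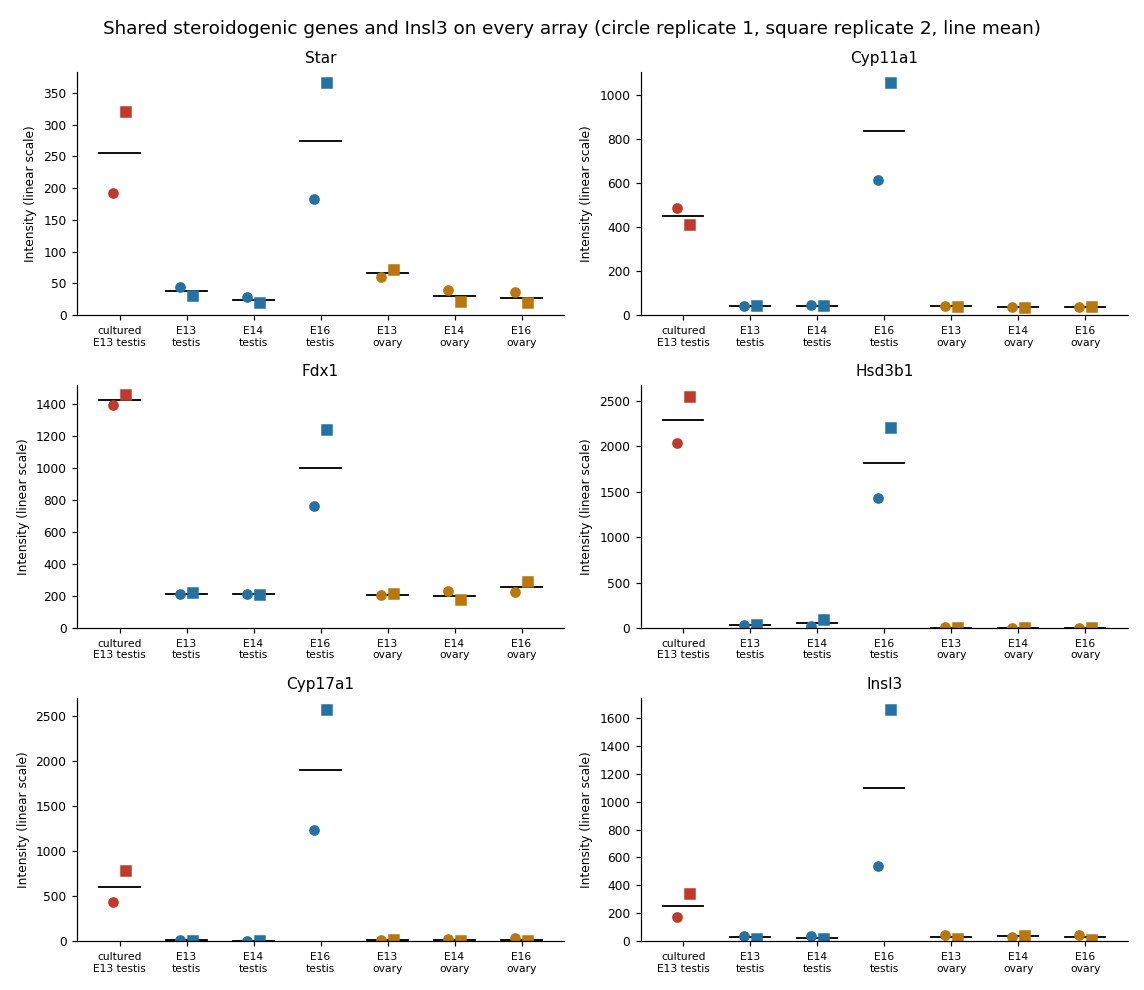
Intensity (linear axis from 0) of Star, Cyp11a1, Fdx1, Hsd3b1, Cyp17a1 and the Leydig cell peptide Insl3 on every array, with cultured E13 testis at the left, fresh testis in the middle and fresh ovary at the right; circles are replicate 1, squares replicate 2 and lines group means. Both cultured E13 testis and E16 testis are high in all 6 panels, while Cyp11b1, Cyp21a1 and Akr1b7 stood high in the cultured arrays and at most at 18.4 in E16 testis.

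Cultured testis against E16 testis sets the organ in culture beside the organ of like total age. None of the 22 pathway genes passed here (0 by limma), against 0.0693% of all probe sets higher and 0.0252% lower. At an unadjusted p under 0.05 (limma) there were 6 of the 22, against 6.67% of all probe sets. With the date code as a random block 1 passed, Akr1c14, where 72 of all probe sets passed, against 15 without the block. Akr1c14, a steroid reductase, read 79.0 and 34.3 in the cultured arrays and 12.7 and 8.1 in E16 testis. Hsd3b1 read 2032 and 2543 in cultured testis and 1432 and 2202 in E16 testis (log2 0.35, adjusted p = 0.979 by limma). Cyp17a1 read 438 and 773 in cultured testis and 1232 and 2566 in E16 testis (log2 -1.58, adjusted p = 0.512 by limma). Insl3, the peptide of Leydig cells, read 175 and 336 in cultured testis and 540 and 1659 in E16 testis (log2 -1.90, adjusted p = 0.50 by limma). Cyp17a1, Insl3 and Cyp11a1 had lower values in both cultured arrays than in both E16 arrays, while Cyp11b1, Cyp21a1 and Akr1b7 had higher ones. Cyp11a1 stood at 448 ± 56.5 in cultured and 833 ± 308 in E16 testis (SD, n = 2 each), with log2 -0.83 and adjusted p = 0.382 by limma.

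**Figure D3:**
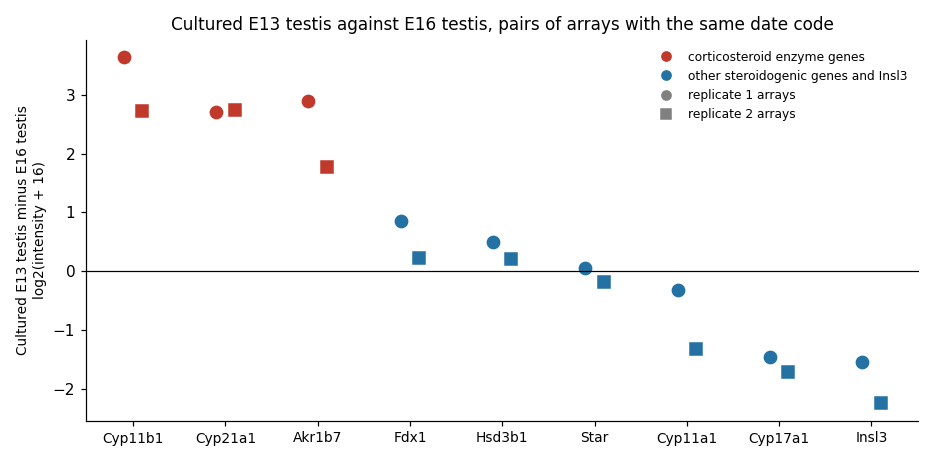
Difference of cultured E13 testis minus E16 testis in log2(intensity + 16) for arrays with the same date code, with circles for the replicate 1 pair and squares for the replicate 2 pair, and the line at 0 for equal signal. Cyp11b1, Cyp21a1 and Akr1b7 lie between 1.77 and 3.65 in both pairs, Star lies near 0, and Cyp17a1 and Insl3 lie between -1.46 and -2.25. Fdx1 and Hsd3b1 lie between 0.21 and 0.85, and Cyp11a1 lies at -0.33 and -1.33.

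Of 30 listed regulators of the adrenal cortex 21 were measured. Mc2r, the receptor of adrenocorticotropic hormone, and its partner Mrap were not among the named probe sets and are not analysed here. Scarb1, which takes up cholesterol from lipoproteins, and Inha, the inhibin subunit, were higher in cultured than in fresh E13 testis, and 19 did not pass (limma, with the 1.06% higher and 0.334% lower given above as background). Scarb1 stood at 169 ± 49.6 against 40.1 ± 7.5 (log2 1.70, adjusted p = 0.0391 by limma) and Inha at 559 ± 95.2 against 132 ± 24.1 (log2 1.96, adjusted p = 0.0019 by limma; SD, n = 2 each). Scarb1 lost its call when any 1 of the 4 arrays compared was left out. Both genes were also higher in E16 than in E13 testis. Nr5a1, whose core site was searched above, read 54.1 and 2.9 in the cultured arrays and 1.3 to 51.7 in the fresh ones. Nr0b1, a nuclear receptor that opposes Nr5a1, stood at 103 ± 29.3 in cultured and 175 ± 9.9 in fresh E13 testis and did not pass (adjusted p = 0.266 by limma).

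Genes that glucocorticoids are known to switch on were read as well. Of 20 measured genes of this list, 0 were higher and 2 lower in cultured against fresh E13 testis (limma, with 1.06% of all probe sets higher and 0.334% lower). Mt2A, a metallothionein, stood at 167 ± 56.5 against 534 ± 45.5 (log2 -1.62, adjusted p = 0.00785 by limma), and lost its call without cultured replicate 2 or without E13 testis replicate 2. Errfi1, a feedback inhibitor of growth factor receptors, stood at 79.6 ± 8.8 against 218 ± 40.7 (SD, n = 2 each; log2 -1.29, adjusted p = 0.0408 by limma), a call lost without any 1 of the 4 arrays compared. Fkbp5, a chaperone partner of steroid receptors, stood at 210.0 ± 49.1 in cultured and 182 ± 29.8 in fresh E13 testis and did not pass (adjusted p = 0.88 by limma). Both Mt2A and Errfi1 were also lower in E16 than in E13 testis.

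Markers of the adrenal medulla and of nerve cells were examined because the fetal adrenal lies close to the gonad and holds both cortex and chromaffin tissue. Of 25 listed genes 23 were measured, and 0 passed in cultured against fresh E13 testis (limma, 9 at an unadjusted p under 0.05) or against E16 testis (limma, 8 at an unadjusted p under 0.05). Over all probe sets 1.06% were higher and 0.334% lower in the first comparison, with 12.3% at an unadjusted p under 0.05, and 0.0693% were higher and 0.0252% lower in the second, with 6.67% at an unadjusted p under 0.05. Their summed signal was 1816 and 1592 in the cultured arrays and 1091 to 1438 in the fresh ones. For 5 of the 23, Th, Chga, Chgb, Scg2 and Stmn2, both cultured arrays lay above all fresh arrays, as did 3.34% of all probe sets. None of the 23 read 0 on any array.

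Th, the first enzyme of catecholamine synthesis, read 111 and 87.6 in the cultured arrays and 10.1 to 63.8 in the fresh ones. Chga, a granule protein found in chromaffin cells, read 26.0 and 10.3 in the cultured arrays and 1.5 to 5.3 in the fresh ones. Stmn2, a nerve cell protein, read 92.9 and 72.7 in the cultured arrays and 12.4 to 42.2 in the fresh ones. Dbh, which makes noradrenaline, read 72.0 and 15.2 in the cultured arrays and 2.2 to 20.3 in the fresh ones, so only cultured replicate 1 stood out. Pnmt, the adrenaline-forming enzyme, read 78.6 and 40.8 in the cultured arrays and 5.6 to 51.7 in the fresh ones. Other markers of the list had lower means in cultured than in fresh E13 testis. Ddc stood at 76.2 ± 27.2 against 129 ± 8.2 (SD, n = 2 each). Slc18a1 stood at 10.0 ± 1.1 against 17.8 ± 7.5, and Slc6a2 at 13.6 ± 10.8 against 21.7 ± 5.9. Gata3, Phox2a and Hand2 also had lower means after culture. Cultured replicate 1 read higher than replicate 2 for 18 of the 23 markers (78.3%) and for 47.4% of all probe sets, within 1 pair of arrays. The labels do not say how the gonad was freed of adjacent tissue, and the part of other tissue in the signal of the 3 enzymes was not tested.

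**Figure D4:**
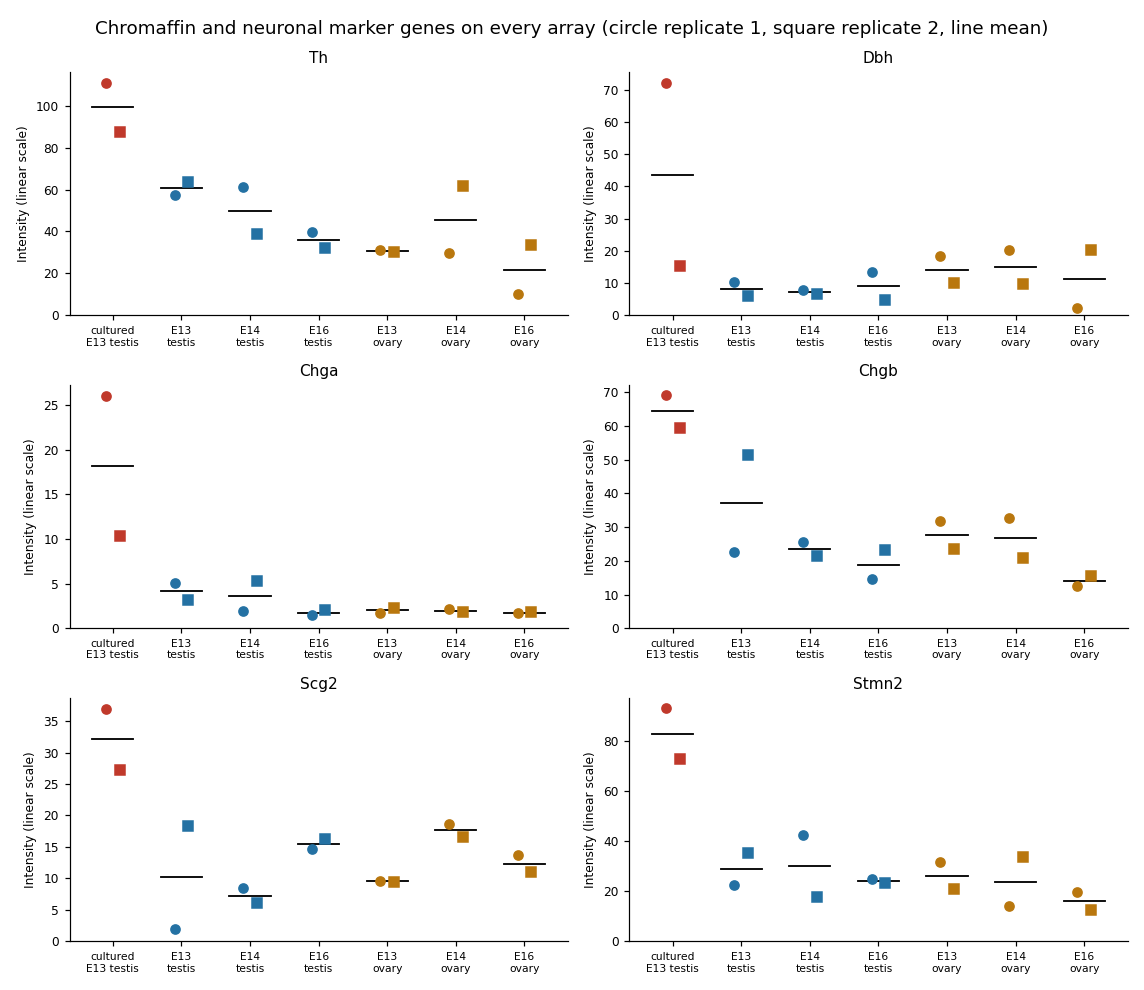
Intensity (linear axis from 0) of Th, Dbh, Chga, Chgb, Scg2 and Stmn2 on every array, with cultured E13 testis at the left, fresh testis in the middle and fresh ovary at the right; circles are replicate 1, squares replicate 2 and lines group means. Both cultured arrays lie above all fresh ones in each panel other than Dbh, where only replicate 1 at 72.0 does. Besides Dbh, the panels are the 5 of 23 measured markers that had this pattern. Ddc and other markers with lower means in cultured than in fresh E13 testis are not shown.

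Kidney and mesonephros markers, the other near tissue, were 14 measured genes with a summed signal of 942 and 689 in the cultured arrays and 781 to 1671 in the fresh ones, and 0 of them passed in cultured against fresh E13 testis (limma, 3 at an unadjusted p under 0.05, with the 1.06%, 0.334% and 12.3% of all probe sets given above). At such shares a list of this size holds few calls or none.

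The pattern of both cultured arrays above all fresh ones, held by 3.34% of all probe sets, was counted in the other lists too. It held for 3 of the 22 steroid synthesis genes, Fdx1, Hsd17b1 and Akr1c14. Fdx1, the electron donor of Cyp11b1, read 1394 and 1456 in the cultured arrays and 177 to 1240 in the fresh ones, where E16 testis was highest. Hsd17b1, which forms estradiol, read 42.0 and 39.7 in the cultured arrays and 7.7 to 38.0 in the fresh ones, a narrow gap. It held for 2 of the 21 adrenal cortex regulators, Inha and the angiotensin receptor gene Agtr1a, which read 61.2 and 48.4 in the cultured arrays and 10.5 to 39.9 in the fresh ones. It held for 0 of the 14 measured fetal Leydig cell genes, 0 of the 20 glucocorticoid response genes and 0 of the 14 kidney and mesonephros genes. Among 10 measured aldo-keto reductases other than Akr1b7, Akr1c3 and Akr1c14 had both cultured arrays above all fresh ones. Akr1c3 read 62.6 and 63.9 in the cultured arrays and 20.8 to 39.0 in the fresh ones, and 0 of the 10 passed against fresh E13 testis (limma, 3 at an unadjusted p under 0.05, against the same shares of all probe sets).

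The genes whose pattern over the 14 arrays was most like that of each enzyme were sought among 6836 probe sets that carry 1 gene symbol and reach 100 on some array, by Pearson's r of log2(intensity + 16). The closest to Cyp11b1 were Akr1b7 (r = 0.92), Cyp21a1 (r = 0.91), Clu (r = 0.90), Ccng1 (r = 0.90) and Reep2 (r = 0.89). For Cyp21a1 they were Cyp11b1, Akr1b7, Ccng1, Reep2 and Pnp (r = 0.87). For Akr1b7 they were Cyp11b1, Cyp21a1, Reep2, Tmx1 and Anxa5 (r = 0.85). That the 3 enzymes lie near each other follows from how they were chosen and is no result.

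These r values rest on the 2 cultured arrays. Over the 12 fresh arrays alone r was -0.01 between Cyp11b1 and Cyp21a1, 0.57 between Cyp11b1 and Akr1b7 and 0.52 between Cyp21a1 and Akr1b7, at signals near background. Clu, the secreted chaperone clusterin, read 158 and 200 in the cultured arrays and 37.1 to 78.5 in the fresh ones. Ccng1, a cyclin induced by p53, read 343 and 421 in the cultured arrays and 102 to 187 in the fresh ones. Reep2, a protein that shapes the endoplasmic reticulum, read 151 and 90.5 in the cultured arrays and 14.7 to 51.0 in the fresh ones. Chga, too dim for that search, had r = 0.92 with Cyp11b1 over the 14 arrays and 0.31 over the fresh ones. Over the 14 arrays r was 0.90 for Stmn2 and 0.71 for Th, which like Chga had both cultured arrays above all fresh ones. Among steroid synthesis genes it was 0.70 for Fdx1, 0.64 for Hsd3b1, 0.59 for Star, 0.52 for Cyp11a1 and 0.47 for Cyp17a1. Medulla markers with lower means after culture are not among these.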

How the data were processed

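Single-colour Affymetrix arrays measured total RNA, 1 array per pool, labelled with biotin per the labels' protocols. The authors deposited 1 intensity per probe set and array on a linear scale. How the probes were summarised, and with which software, is not given in the sources used here. Of 15923 probe sets, 57 controls were left out. The array's annotation gave 12783 of them 1 gene symbol. No genome build is named for the array, and only the promoter windows carry coordinates (GRCr8).

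Values were analysed as log2(intensity + 16) without further normalization. Under R 4.3.3, limma 3.58.1 estimated the 7 group means over the 14 arrays with 1 shared spread (7 residual and 4.16 prior degrees of freedom), followed by Benjamini-Hochberg adjustment over 15866 probe sets and a threshold of 0.05. The model was run on simulated data with independent noise on each array and differences added only to brighter probe sets. The real arrays had a correlation of 0.38 within date codes, so this run does not cover them or dim probe sets. Genes with several probe sets are given by the brightest.

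The members and the 9 gene lists were chosen with earlier results of these data known. From each list, up to 4 genes per direction with the smallest p were named, plus 6 that did not pass from the pathway and medulla lists, and the 5 genes most like each member. Star, Insl3, Hsd17b3, Akr1c14, Akr1c3, Hsd17b1, Agtr1a, Nr5a1, Nr0b1, Fkbp5, Scg2, Stmn2, Amh, Xist and the chromosomal neighbours were named after their values were seen. The same holds for Slc18a1, Slc6a2, Gata3, Phox2a and Hand2. Alternatives were another offset, normalization or filter, date codes as a block, and arrays left out.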

Additional observations from a re-analysis of the deposited data

Results flagged for a closer look

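None of Cyp11b1, Cyp21a1 and Akr1b7 was tested for a difference between groups, and with 2 arrays a group no outlying array could be sought within one. The sex difference, testis minus ovary, at E16 minus that at E13 passed limma's interaction test for several genes of the lists. Of 15866 probe sets, 15 passed as higher and 8 as lower. Adjusted p lay close to the threshold for Tsx (0.0496 by limma) and Sry (0.0488 by limma), and other settings were not run for this test. On the log2 scale this change in the sex difference was 6.09 for Cyp17a1, 5.25 for Hsd3b1, 3.93 for Cyp11a1 and 3.30 for Star, all shifts towards testis. Among the other list genes it was 3.92 for Amh and 3.00 for Tsx towards testis, and -2.85 for Mt2A and -1.87 for Amhr2 towards ovary. For Sry it was -2.12, a loss of testis signal rather than a higher ovary signal. Sry stood at 173.85 in E13 testis and 23.35 in E16 testis, and at 24.4 in E13 ovary and 20.35 in E16 ovary.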

How the results depend on the processing

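The differences of Cyp11b1, Cyp21a1 and Akr1b7 between cultured testis and E13 or E16 testis stayed positive under every setting run, and their size moved with the offset. With an offset of 1, cultured minus E13 testis was 3.38 for Cyp11b1, 3.30 for Cyp21a1 and 1.91 for Akr1b7, and cultured minus E16 testis was 4.12, 3.93 and 3.21 for Cyp11b1, Cyp21a1 and Akr1b7. With an offset of 64 the values were 1.86, 1.41 and 0.987 against E13 testis and 2.03, 1.54 and 1.36 against E16 testis. The probe set shared by Cyp11b1, Cyp11b3 and Cyp11b2 gave 1.77 against E13 and 1.99 against E16 testis, that of Cyp11b1 and Cyp11b3 gave 0.25 and 0.39, and that of Cyp11b1 and Cyp11b2 gave 4.45 and 4.47. With 1 array left out, cultured minus E13 testis ranged over 2.39 to 3.15 for Cyp11b1, 2.01 to 2.78 for Cyp21a1 and 1.10 to 1.98 for Akr1b7, and cultured minus E16 testis over 2.80 to 3.56, 2.65 to 2.80 and 1.97 to 2.70.

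Of the 22 steroid pathway genes, 7 passed in E16 testis against E16 ovary, 6 in E16 against E13 testis, 5 in cultured against E13 testis and 0 in cultured against E16 testis. With 1 array left out the counts ranged over 5 to 7, 4 to 7, 4 to 6 and 0 to 0. With only the arrays compared in the fit, 2 passed against E16 ovary and 3 in E16 against E13 testis, from fewer samples. Over all probe sets the calls there were 11 and 29. Without the 4 arrays with discordant Xist, some groups kept 1 array. Fewer genes then passed in the first 3 comparisons, in the list and over all probe sets. Chip batch as a random block gave 1 in cultured against E16 testis, where 72 of all probe sets passed. With the replicate number as a block the counts were 7, 6, 6 (Hsd11b2 added) and 0, and over all probe sets 398, 215, 298 and 14 against 276, 150, 221 and 15 without the block. Deviations of same-numbered arrays from their group means correlated at -0.05 to 0.53 over the 21 pairs of groups (median 0.17, above 0 in 18), so not every pair moved together and the block was not used for the reported values. Some same-numbered arrays share a date code, and the correlation within codes was 0.38. A setting chosen after seeing the data, without the 2 arrays of highest actin ratio, gave 5, 5, 5 and 0. Where not stated, the cause was not tested. With 2 arrays a group, and signals near background in fresh gonads, the number of arrays limits the precision.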
